A study of Mus musculus with 6 samples.

Results

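Mural cells, the pericytes of capillaries and the smooth muscle cells of larger vessels, were followed through 10 marker genes in mouse quadriceps muscle with and without an ERRγ transgene. The genes are widely used markers of these cells, and every probe set that the platform annotation assigns to exactly 1 of them was taken. All 10 genes had at least 1 such probe set. This gave 21 of the 45101 probe sets on the array and 10 of the 18193 genes with a single-gene probe set. A probe set is a group of short probes on an Affymetrix array that report on 1 transcript, and its signal is a brightness on a linear scale.

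Pericytes lie on capillary endothelial cells inside a shared basement membrane, and vascular smooth muscle cells wrap arterioles and venules and set their width. Endothelial cells recruit mural cells by releasing PDGF-B, which acts on the receptor PDGFRβ, and direct contact through Notch ligands acts on Notch3. Rgs5, Kcnj8, Abcc9, Pdgfrb, Cspg4 and Notch3 are used as pericyte markers, and Acta2, Myh11, Tagln and Cnn1 encode proteins of the smooth muscle contractile apparatus. Several of these genes are not exclusive to mural cells, since Abcc9 is also expressed in skeletal muscle fibres and Notch3 in satellite cells.

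The transgenic group was 3 male C57/BL6 mice at 8 weeks of age carrying ERRγ, the orphan nuclear receptor encoded by Esrrg, behind the promoter labelled hSkeletal Actin, that of the α-actin of skeletal muscle fibres, which are not the cells these markers stand for. The wild-type group was 3 male C57/BL6 mice of the same age. The titles call the animals biological replicates, and how many founder lines they came from is not stated in the labels. At its brightest probe set Esrrg gave 14427.2, 13807.7 and 12697.0 in transgenic muscle, against 71.6, 61.0 and 24.1 in wild-type muscle. That probe set bore out the labels. The other Esrrg probe sets had mean signals of 145.3 and 53.3 in transgenic and 104.9 and 38.5 in wild-type muscle. Neither passed the test given below. The skeletal muscle genes Acta1 and Ckm, at their brightest probe sets, were at 15345.5 or more on every array. The median signal of an array was 57.1 to 61.9 in the transgenic group and 52.1 to 56.3 in the wild-type group. As signs of RNA quality, 3′ over 5′ control probe ratios were 0.790 to 0.830 in transgenic and 0.809 to 0.829 in wild-type muscle for Gapdh, and 1.17 to 1.23 and 0.940 to 1.14 for Actb. In whole muscle, more cells of a type and more RNA per cell cannot be told apart.

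Rgs5 and Kcnj8 were the members that rose at their brightest probe set, and the 250 bases before their transcription starts are shown with those of Acta2, a contractile gene that did not pass the test. RefSeq promoters of build GRCm38.p6 were found for 7 of the 10 genes. Capitals mark matches to the CArG box, the site of serum response factor, with at most 1 G or C allowed in its core of A and T. The windows are chr1:169655251-169655500 on the plus strand for Rgs5, chr6:142571615-142571864 on the minus strand for Kcnj8 and chr19:34255374-34255623 on the minus strand for Acta2.
Rgs5: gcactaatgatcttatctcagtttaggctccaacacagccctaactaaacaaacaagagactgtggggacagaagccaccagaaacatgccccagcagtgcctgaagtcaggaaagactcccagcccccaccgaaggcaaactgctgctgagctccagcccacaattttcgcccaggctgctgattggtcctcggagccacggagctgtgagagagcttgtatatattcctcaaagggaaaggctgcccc
Kcnj8: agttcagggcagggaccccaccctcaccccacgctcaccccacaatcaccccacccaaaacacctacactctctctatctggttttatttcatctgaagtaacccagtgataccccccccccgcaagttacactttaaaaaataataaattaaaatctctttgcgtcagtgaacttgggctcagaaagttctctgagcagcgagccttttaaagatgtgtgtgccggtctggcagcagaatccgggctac
Acta2: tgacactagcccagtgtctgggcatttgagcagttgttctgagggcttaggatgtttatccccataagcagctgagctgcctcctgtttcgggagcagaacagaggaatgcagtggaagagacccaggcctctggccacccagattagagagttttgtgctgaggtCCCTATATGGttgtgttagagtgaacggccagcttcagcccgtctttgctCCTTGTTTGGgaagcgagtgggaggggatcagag
The Acta2 window held 2 matches, CCCTATATGG and CCTTGTTTGG, starting at -84 and -34 from the transcription start, and such a match was in 8.59% of the 32851 promoters of the same length. A CArG box without the substitution was in 1.47% of promoters and in none of the 7. The ERR motif TNAAGGTCA was in 1.14% of promoters and its core AAGGTCA in 4.08%, and neither was in any of the 7 windows. The RBPJ motif TGGGAA was in 21.6% of promoters and in the Abcc9 and Acta2 windows, in Acta2 overlapping the CArG match nearer the start. Motifs were read on both strands, and a missing match says only that those letters are not in this window.

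Of the 10 genes, 9 had a brightest probe set above the filter on dim signals, which required a mean signal over 37.7. Among these 9 genes Rgs5 and Kcnj8 rose, 0 fell and 7 did not pass, against 13.4% of all 12537 tested genes called in either direction, with 7.64% higher and 5.75% lower (limma with an intensity trend on log2(signal + 16), Benjamini-Hochberg adjusted p under 0.05). The log2 differences of the 9 genes ran from -0.31 to 0.82 with a median of 0.36, beside a median of 0.03 over all tested genes. With the arrays rescaled to share 1 median these medians were 0.21 and -0.11. Of the 9 differences, 8 were positive, against 53.8% over all genes, and that of Cspg4 turned negative with arrays rescaled to share 1 median signal. By probe set, 17 were tested and 6 passed as higher, 0 as lower and 11 in neither direction, where 6.37% of all tested probe sets were called higher and 5.16% lower. Before adjustment 13 of the 17 had p under 0.05 in limma, 11 higher and 2 lower, both of Abcc9, where 25.6% of all tested probe sets did, 14.4% higher and 11.2% lower. The 6 that passed were all 4 of Rgs5, the 1 of Kcnj8 and 1 of the 2 of Pdgfrb. Transgenic and wild-type signals did not overlap at 10 of the 17 probe sets, with 9 higher and 1 lower, against 17.8% and 13.1% of all probe sets. By gene, 3 of the 9 were higher and 1 lower without overlap, where 18.6% and 14.7% of all tested genes were.

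**Figure D1:**
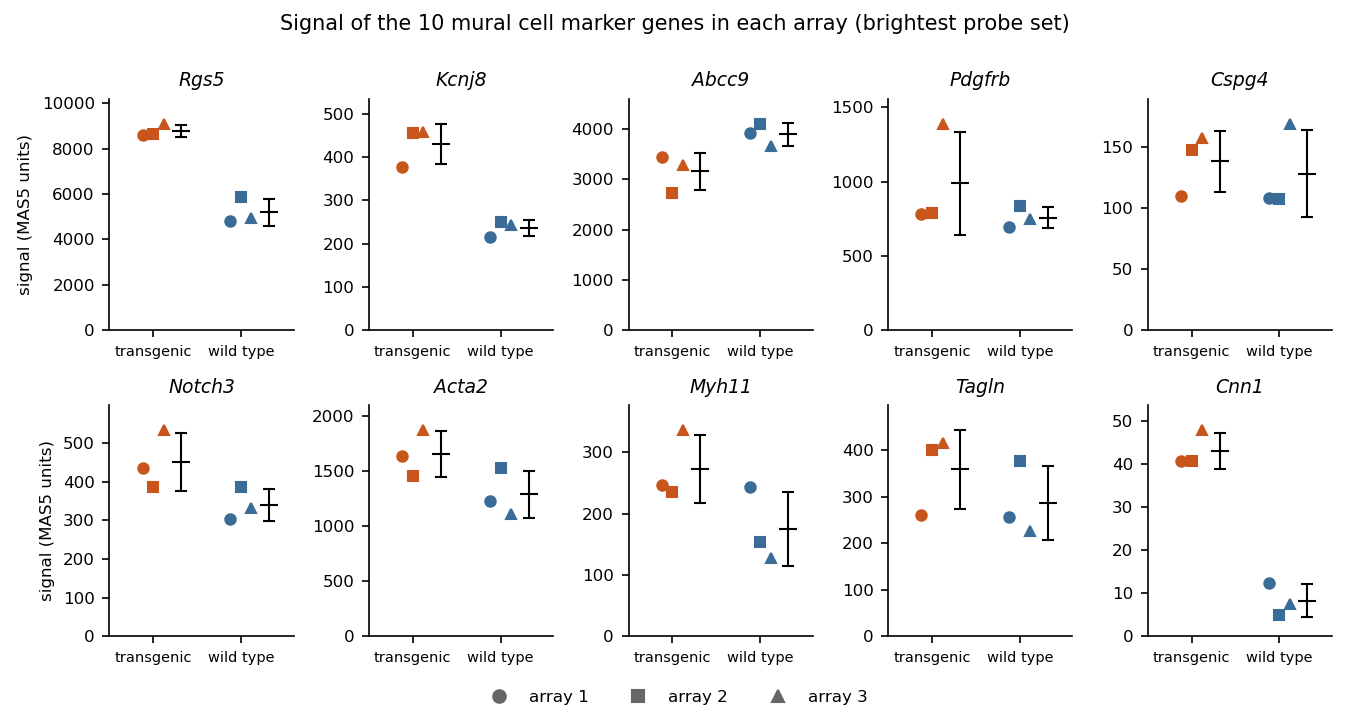
Signal in MAS5 units at the brightest probe set of each of the 10 genes, with transgenic arrays (orange) left of wild-type arrays (blue), a marker shape per replicate number, and the mean ± SD (n = 3) in black. Rgs5, Kcnj8, Cnn1 and, narrowly, Notch3 are higher on every transgenic array than on any wild-type array. Abcc9 is lower on every transgenic array, and Cnn1 is dim on all arrays, at 4.9 to 47.9.

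Rgs5 encodes a regulator of G-protein signalling that shortens the response of Gq- and Gi-coupled receptors and is among the most used pericyte markers. Its brightest probe set gave 8606.5, 8619.3 and 9094.4 in transgenic muscle, against 4786.2, 5843.0 and 4920.6 in wild-type muscle. All 3 transgenic values lay close together and above every wild-type value. The means were 8773 ± 278 and 5183 ± 575 (SD, n = 3 each), a ratio of 1.69, and the log2 difference was 0.76 (SE 0.10, limma adjusted p = 0.000902). The other Rgs5 probe sets rose by nearly the same amount, with log2 differences of 0.77 (SE 0.14), 0.77 (SE 0.13) and 0.80 (SE 0.12) and ratios of 1.73, 1.72 and 1.75. They read the same gene and 3 of them share a source sequence in the annotation, so they are not independent replicates. The dimmest gave 1492.9, 1498.8 and 1406.5 in transgenic and 718.6, 862.2 and 933.4 in wild-type muscle, again without overlap. Of 9 other RGS genes tested, 1 rose, 0 fell and 8 had no call, with a median of 0.19. Among all tested genes 7.64% rose and 5.75% fell. The riser was Rgs4, a related regulator, at 0.59 (SE 0.17, limma adjusted p = 0.0482). Rgs4 also counts among the risers of the other pericyte genes below. Its other probe sets did not pass, at 0.93 and 0.35, and its call was lost without transgenic 2, transgenic 3 or any 1 wild-type array (adjusted p = 0.0785 to 0.147).

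Kcnj8 encodes Kir6.1, the pore of the ATP-sensitive potassium channel of mural cells, and Abcc9 encodes SUR2, the regulatory subunit that surrounds this pore. The genes are neighbours on chromosome 6, with 0 genes listed between them. Kcnj8 gave 377.7, 456.5 and 458.7 in transgenic muscle, against 215.4, 250.9 and 242.6 in wild-type muscle. The groups were well separated, with a ratio of 1.82 and a log2 difference of 0.82 (SE 0.13, limma adjusted p = 0.00311). Abcc9 did not rise with it. Abcc9 is also expressed in skeletal muscle fibres, so its signal in whole muscle need not be that of mural cells. Its brightest probe set gave 3440.8, 2734.6 and 3290.1 in transgenic muscle, against 3910.4, 4104.1 and 3656.7 in wild-type muscle, so that every transgenic value was lower. The log2 difference of -0.31 (SE 0.11) did not pass (limma adjusted p = 0.101). The others gave -0.26 (SE 0.11), with overlapping values, and -0.0002 (SE 0.11), with means of 2154 ± 253 and 2146 ± 102 (SD, n = 3, transgenic and wild-type). When arrays were rescaled to share 1 median signal, which called 3.62% of probe sets higher and 8.88% lower, the probe sets at -0.31 and -0.26 fell (-0.46 and -0.41, adjusted p = 0.0297 and 0.0427). The probe set at -0.26 also fell without wild-type 3 (-0.35, adjusted p = 0.0460).

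The difference between these subunits was itself compared within arrays, a comparison chosen after their values were seen. The Kcnj8 log2 signal minus that of Abcc9, set relative to the wild-type mean, was 0.819, 1.412 and 1.154 on the transgenic arrays and -0.13, 0.005 and 0.13 on the wild-type arrays at the brightest Abcc9 probe set. The difference between the groups was 1.13, and it was 0.82 and 1.08 with the other Abcc9 probe sets. Each gave p = 0.1 in an exact two-sided permutation test, the smallest value 3 arrays against 3 allow. At the brightest Abcc9 probe set this outcome was already fixed by the non-overlapping values of both genes. It was fixed at the other Abcc9 probe sets too, where on the log2 scale the gap between the Kcnj8 groups exceeded the Abcc9 overlap. Each test used the same Kcnj8 probe set, so the p-values add no separate support. Kcnj11, the Kir6.2 pore of the channel of muscle fibres, gave 482.9, 622.3 and 498.2 in transgenic and 723.7, 733.2 and 550.5 in wild-type muscle. Its values overlapped and its log2 difference of -0.31 (SE 0.15) did not pass (limma adjusted p = 0.216), nor did that of its dimmer probe set, -0.51 (adjusted p = 0.109). Abcc8, the SUR1 subunit, was dim at 46.1 to 48.9 and 44.2 to 84.8 and did not pass (adjusted p = 0.537). Which cells the Abcc9 signal came from and which splice forms its probe sets read were not tested.

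**Figure D2:**
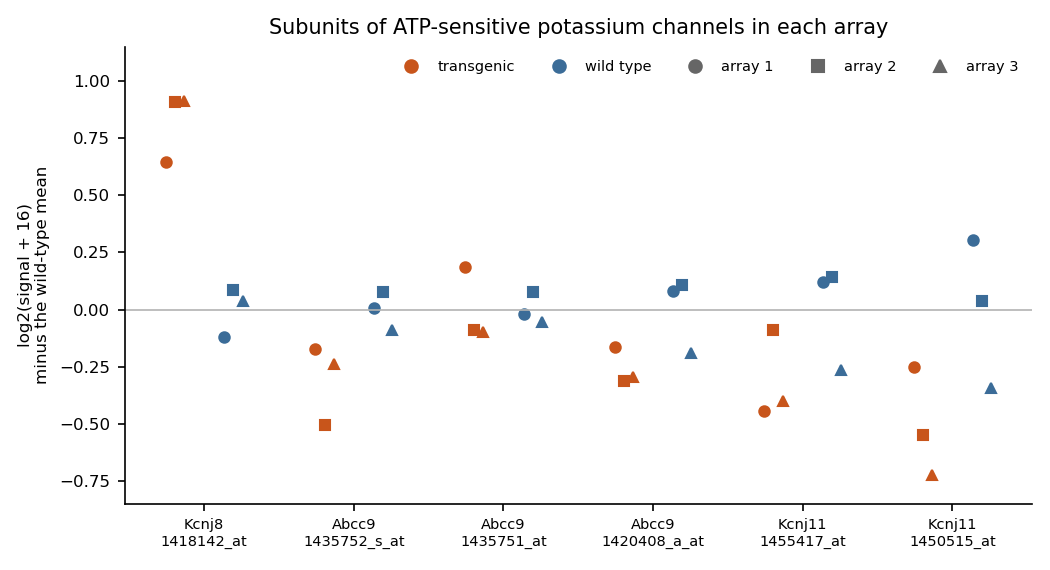
The log2(signal + 16) of each array minus the wild-type mean, for each probe set of Kcnj8, Abcc9 and Kcnj11, with transgenic arrays (orange) left of wild-type arrays (blue). All 3 transgenic Kcnj8 points lie above the wild-type points, while those of the brightest Abcc9 probe set lie below them.

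Pdgfrb encodes the receptor for PDGF-B on mural cells and on other mesenchymal cells, and its probe sets differed. The dimmer gave 221.4, 319.5 and 311.1 in transgenic muscle, against 152.1, 159.0 and 138.6 in wild-type muscle, without overlap. It rose with a ratio of 1.89 and a log2 difference of 0.84 (SE 0.17, limma adjusted p = 0.00856). The brighter gave 784.0, 787.7 and 1389.8 in transgenic and 693.0, 832.8 and 745.4 in wild-type muscle. Transgenic 3 alone stood above the wild-type range, and the difference of 0.33 (SE 0.20) did not pass (adjusted p = 0.338). Without transgenic 3 it was 0.06, and the dimmer probe set still passed (adjusted p = 0.0384).

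Cspg4 encodes NG2, a proteoglycan of the pericyte surface that is also carried by oligodendrocyte precursors. Its probe sets were close in mean signal over all arrays, at 133.2 and 124.4. The brighter gave 109.7, 147.3 and 157.6 in transgenic muscle, against 108.3, 107.3 and 169.2 in wild-type muscle, with a log2 difference of 0.11 (SE 0.21). The groups overlapped, and the difference was -0.03 with the arrays rescaled to share 1 median. At its dimmer probe set all transgenic values, 116.5, 138.1 and 207.7, were above the wild-type values of 103.9, 92.8 and 87.5, but the difference of 0.59 (SE 0.21) did not pass (limma adjusted p = 0.102).

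Notch3, the Notch receptor of mural cells, gave 434.9, 387.2 and 534.0 in transgenic muscle, against 305.0, 386.1 and 331.5 in wild-type muscle at its brighter probe set. The lowest transgenic and highest wild-type values nearly touched, and the log2 difference of 0.39 (SE 0.15) did not pass (limma adjusted p = 0.132). The dimmer probe set was also higher on every transgenic array, at 100.5 to 112.8 against 46.6 to 80.6, with a difference of 0.59 (SE 0.22, adjusted p = 0.111).

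The contractile genes had positive differences, none of which passed, and Cnn1 was too dim to be tested. Acta2, smooth muscle α-actin, gave 1632.1, 1455.1 and 1870.6 in transgenic muscle, against 1224.6, 1522.7 and 1112.3 in wild-type muscle. Wild-type 2 lay above the lowest transgenic array, and the log2 difference was 0.36 (SE 0.14, limma adjusted p = 0.125). Its other probe sets, at 5.2 to 47.8, were below the filter. Myh11, smooth muscle myosin heavy chain, gave 246.1, 234.9 and 336.3 in transgenic muscle, against 243.5, 154.1 and 128.3 in wild-type muscle. Wild-type 1 was level with the transgenic arrays, and the difference of 0.62 (SE 0.22, adjusted p = 0.103) passed without it (0.86, adjusted p = 0.0321). The other Myh11 probe set, at 6.5 to 25.3, was below the filter. Tagln, the actin-binding protein SM22α, gave 260.9, 399.3 and 414.4 in transgenic muscle, against 255.9, 375.2 and 226.7 in wild-type muscle. Transgenic 1 lay within the wild-type range and wild-type 2 within the transgenic range, with a difference of 0.31 (SE 0.21, adjusted p = 0.398).

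Cnn1 encodes calponin 1, which binds actin and tropomyosin in smooth muscle. It gave 40.6, 40.8 and 47.9 in transgenic muscle, against 12.5, 4.9 and 7.5 in wild-type muscle. The groups did not overlap, where 8.34% of the 18019 probe sets below the filter were higher and 3.90% lower without overlap, and all wild-type values were under the 16 units added before taking logarithms. Without the filter its log2 difference was 1.29 (SE 0.28, limma adjusted p = 0.0280), in a fit that called 5.22% of 45037 probe sets. Whether a signal this low is above the background of the array was not tested.

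**Figure D3:**
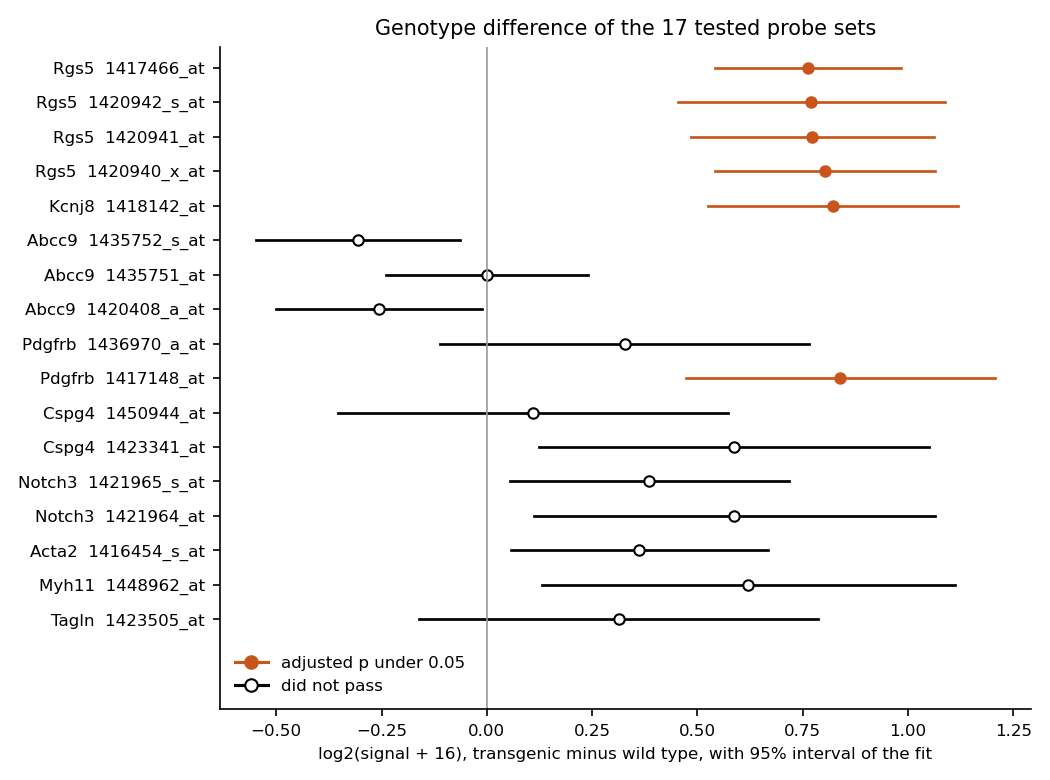
The log2(signal + 16) difference, transgenic minus wild type, of the 17 tested probe sets with the 95% interval of the limma fit, before adjustment for multiple tests. Filled orange points passed at an adjusted p under 0.05, namely Rgs5 at all 4 probe sets, Kcnj8 and the dimmer Pdgfrb probe set.

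The arrays of a genotype did not vary evenly. At the brightest probe sets of the 10 genes, transgenic 3 was the highest transgenic array for 9 genes, and wild-type 2 was the highest wild-type array for 7. The median deviation of the 9 tested genes from their wild-type means was 0.34, 0.21 and 0.63 on the transgenic arrays and -0.12, 0.14 and -0.07 on the wild-type arrays. Without transgenic 3 the median difference was 0.26 and the same 6 probe sets passed. Each of the 6 passed under all 16 alternative settings, except the Rgs5 probe set at 0.77 (SE 0.14), which gave adjusted p = 0.0549 without the intensity trend.

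Other genes used as pericyte markers had a median close to that of the 10 genes. The list had 23 tested genes with a median log2 difference of 0.41, of which 8 passed as higher and 0 as lower. Over all tested genes the shares were 7.64% higher and 5.75% lower, also for comparison with the lists that follow. Kcne4, a potassium channel accessory subunit, gave 116.9, 162.7 and 106.8 in transgenic muscle, against 53.6, 57.7 and 55.4 in wild-type muscle (log2 difference 0.998, SE 0.205, limma adjusted p = 0.0106). It passed under all 16 alternatives. P2ry14, a receptor for UDP-sugars (0.97, SE 0.23), Foxc1, a forkhead factor of vessel development (0.85, SE 0.25), Ndufa4l2, a mitochondrial protein abundant in pericytes (0.67, SE 0.18), and Gucy1b1, the β1 subunit of the nitric oxide receptor guanylate cyclase (0.67, SE 0.16), also rose. The called Foxc1 probe set gave 37.4, 30.4 and 37.0 in wild-type muscle, under the filter signal. It was tested only because its transgenic signals, with a mean of 76.0, raised its mean. The dimmer Foxc1 probe set did not pass, at 0.30. Left-out arrays ended these calls, at adjusted p = 0.0681 to 0.0874 for P2ry14 (transgenic 1 or 2, wild-type 1 or 2), 0.0689 to 0.141 for Foxc1 (any array), 0.0631 to 0.135 for Ndufa4l2 (transgenic 2 or 3, wild-type 1 or 2) and 0.0685 to 0.0799 for Gucy1b1 (transgenic 2 or 3, wild-type 1). The list's count was 5 without transgenic 1, 3 without transgenic 2, transgenic 3 or wild-type 2, 2 without wild-type 1, and 6 without wild-type 3. It was 3 with the arrays rescaled to share 1 median, and 4 without the filter or without the intensity trend. Cd248, endosialin, did not pass at -0.51, and Anpep, an aminopeptidase of pericytes and other cells, was below the filter at 9.2 to 11.1 in transgenic and 24.1 to 55.2 in wild-type muscle. Cd248 and Anpep were chosen after their values were seen.

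Of 27 other smooth muscle genes tested, 24 did not pass, 1 was called higher and 2 lower, beside 13.4% of all genes called. Their median was 0.09. Besides the contractile apparatus the list held regulators, channels and matrix genes, such as Prkg1, Kcnma1 and Eln, and its riser was Prkg1. Prkg1, the cyclic GMP-dependent kinase that relaxes smooth muscle, gave 926.2, 942.8 and 878.7 in transgenic muscle, against 478.5, 557.6 and 408.2 in wild-type muscle. It rose by 0.92 (SE 0.13, limma adjusted p = 0.00138), by 1.26 at its dimmer probe set, and passed under all 16 alternatives. Actg2, enteric smooth muscle γ-actin, fell by 0.81 (SE 0.19, adjusted p = 0.0185), with adjusted p = 0.0767 without wild-type 1 and 0.0612 without wild-type 2. Nexn, an actin-binding protein of muscle Z-discs, fell by 0.37 (SE 0.10), and its call was lost without transgenic 1, transgenic 3, wild-type 1 or wild-type 2 (adjusted p = 0.0841 to 0.140). Many genes of this list, such as Des, Tpm1 and Tpm2, are abundant in muscle fibres, so the list is not specific to vessels. Its count of 3 was 1 without wild-type 1 or wild-type 2 and 5 without wild-type 3.

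Of 11 tested genes for serum response factor, its cofactors and related regulators of the smooth muscle programme, 2 rose and 2 fell, and the median was 0.08. The 4 calls became 1 without transgenic 1, transgenic 2 or wild-type 1, and 2 without transgenic 3 or wild-type 2. Prrx1, a homeobox factor of mesenchymal cells, gave 1470 ± 256 in transgenic and 840.7 ± 39.8 in wild-type muscle (SD, n = 3 each) and rose by 0.78 (SE 0.13, limma adjusted p = 0.00327). Its call held under all 16 alternatives, and 3 of its 5 tested probe sets passed. Klf2, a factor induced by flow in endothelium, rose by 0.65 (SE 0.19), Mrtfa, a cofactor of serum response factor, fell by 0.55 (SE 0.15) and Mef2c, a muscle transcription factor, fell by 0.38 (SE 0.10). Klf2 did not pass without transgenic 1, transgenic 2, wild-type 1 or wild-type 3 (adjusted p up to 0.171). Mrtfa and Mef2c passed without wild-type 3 but not without any 1 of the other arrays (adjusted p = 0.0963 to 0.173 and 0.0674 to 0.147). Myocd, the myocardin that drives smooth muscle genes, averaged 10.3 ± 6.03 in transgenic and 23.6 ± 11.1 in wild-type muscle (SD, n = 3 each), below the filter.

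In the pathway of Notch3, 4 of 24 tested genes rose and 1 fell, with a median of 0.11, beside 7.64% and 5.75% of all tested genes. Notch4, the endothelial receptor, gave 248.4, 313.8 and 457.7 in transgenic muscle, against 117.8, 175.5 and 159.1 in wild-type muscle, a rise of 1.07 (SE 0.22, limma adjusted p = 0.0105). Nrarp (0.68, SE 0.17) and Hes1 (0.63, SE 0.15), targets of Notch signalling, and the coactivator Maml1 (0.65, SE 0.15) rose, while Rfng, a sugar transferase that modifies Notch, fell by 0.85 (SE 0.20). The dimmer Nrarp and Rfng probe sets did not pass, at 0.33 and -0.37, nor did the other tested Maml1 probe set, at 0.36. Calls were lost for Nrarp without any 1 array except wild-type 3 (adjusted p = 0.0546 to 0.117), and for Hes1 without any transgenic array or wild-type 2 (0.0545 to 0.0750). Maml1 was lost without transgenic 1 or 2 or wild-type 1 or 2 (adjusted p = 0.0634 to 0.0820), and Rfng without transgenic 1 or 3 or wild-type 1 (0.0725 to 0.0806). The ligand Jag1 showed no difference past its error at -0.01 (SE 0.18), and Dll4 gave 150.1, 145.5 and 105.0 in transgenic and 24.9, 80.1 and 106.6 in wild-type muscle. The Dll4 difference of 0.92 (SE 0.35, adjusted p = 0.128) passed without wild-type 3 (adjusted p = 0.0397). The list's count of 5 was 1 without transgenic 1, 2 without transgenic 2, wild-type 1 or wild-type 2, 3 without transgenic 3 and 6 without wild-type 3.

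In the PDGF pathway the ligand did not move with its receptor's dimmer probe set. Pdgfb gave 535.1, 492.7 and 538.4 in transgenic muscle, against 696.8, 529.5 and 482.1 in wild-type muscle, an overlap with a log2 difference of -0.11 (SE 0.14, limma adjusted p = 0.697). Of 18 genes tested, 1 rose and 1 fell, with a median of -0.06, beside 7.64% higher and 5.75% lower over all tested genes. The list also held the sphingosine 1-phosphate receptors S1pr2 and S1pr3, which are not PDGF genes, and S1pr3 was the riser. S1pr3, a sphingosine 1-phosphate receptor of smooth muscle, gave 442.9 ± 73.1 in transgenic and 225.0 ± 16.1 in wild-type muscle (SD, n = 3 each) and rose by 0.92 (SE 0.15, adjusted p = 0.00292), under all 16 alternatives as well. Its dimmer probe sets did not pass, at 0.39 and 0.07. Lrp1, a partner of PDGFRβ, fell by 0.47 (SE 0.13), a call that was lost without any 1 array (adjusted p = 0.0744 to 0.123), which left the list's count at 1.

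Among channels, receptors and enzymes of vascular tone, 4 of 16 tested rose and 1 fell, with a median of 0.25. Besides Prkg1 and Gucy1b1, Ednrb, an endothelin receptor found on endothelium, rose by 0.69 (SE 0.12, limma adjusted p = 0.00424), with 0.64 at each of its other probe sets. It passed under all 16 alternatives. Agtr1a, the angiotensin receptor, rose by 0.51 (SE 0.14), a call lost without any 1 array (adjusted p = 0.0509 to 0.112). Nos1, the nitric oxide synthase of muscle fibres and neurons, gave 330.7, 338.0 and 264.3 in transgenic muscle, against 772.9, 750.7 and 395.9 in wild-type muscle. It fell by 0.95 (SE 0.23, adjusted p = 0.0222), and 3 of its 4 probe sets passed as lower, although at the brightest the call was lost without any 1 array except wild-type 3 (adjusted p = 0.0521 to 0.0954). The list's count of 5 was 3 without transgenic 1 and 2 without transgenic 2, transgenic 3 or wild-type 1.

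The TGF-β pathway, which acts on mural cell maturation, had 1 riser and 2 fallers among 16 tested genes and a median of -0.10. Among all tested genes 7.64% rose and 5.75% fell. Eng, endoglin, an endothelial co-receptor, rose by 0.65 (SE 0.14), and lost its call without transgenic 2, transgenic 3 or wild-type 1 (adjusted p = 0.0522 to 0.0674). Eng also counts among the endothelial risers below. Smad3, a mediator of the signal in the nucleus, fell by 0.60 (SE 0.12, limma adjusted p = 0.00990) and by 0.54 and 0.78 at its other probe sets, with adjusted p = 0.0551 without wild-type 1. The ligand Tgfb2 fell by 0.52 (SE 0.15), passed without wild-type 3 and was lost without any 1 of the other arrays (adjusted p = 0.0673 to 0.178), and its 3 other probe sets did not pass. The pathway's count of 3 was 1 without transgenic 2 or transgenic 3, 0 without wild-type 1 and 5 without wild-type 3.

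**Figure D4:**
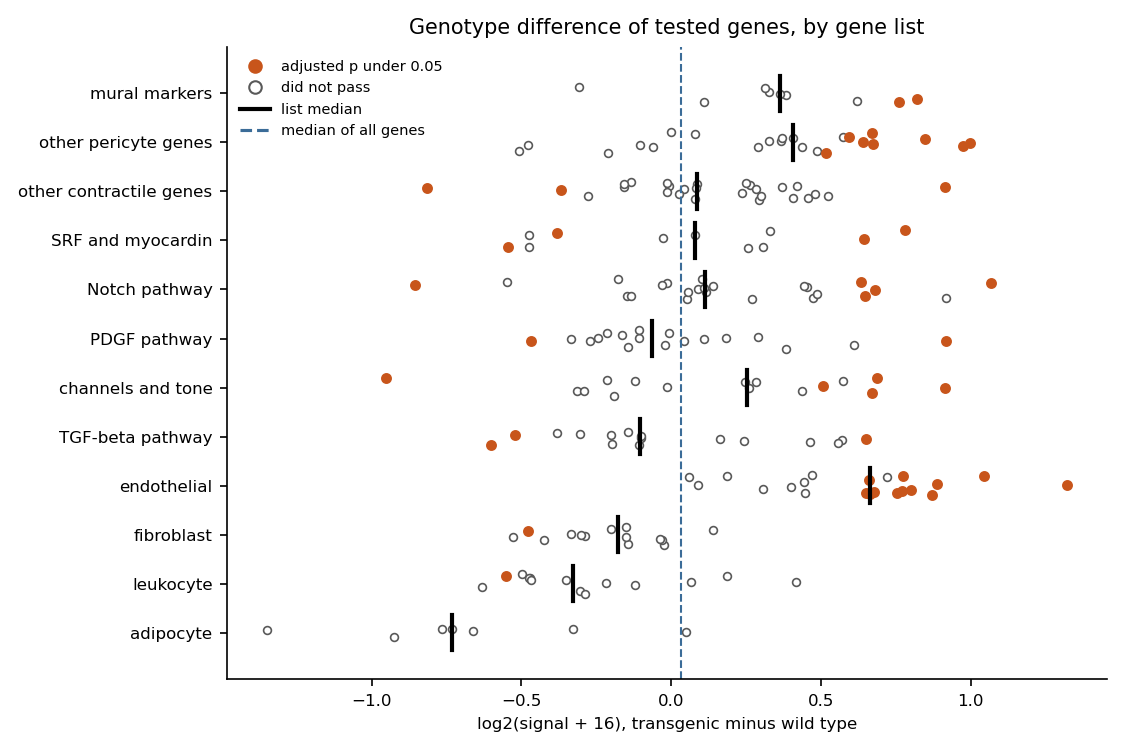
The log2(signal + 16) difference, transgenic minus wild type, of each tested gene at its brightest probe set, by list, with filled points for an adjusted p under 0.05, a black bar at each list's median and a dashed line at the median of all tested genes, 0.03. The mural markers and other pericyte genes have medians of 0.36 and 0.41, below the endothelial median of 0.66 and above those of the fibroblast, leukocyte and adipocyte lists.

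Of 21 endothelial markers tested, 12 rose, 0 fell and 9 did not pass, the median was 0.66, and the summed signal was 9610.3 to 10890 on the transgenic arrays and 5666.9 to 6711 on the wild-type arrays. Esam, of endothelial junctions, rose by 1.32 (SE 0.11, limma adjusted p = 6.26e-05), and Gpihbp1 (1.04), Sox17 (0.89), Mmrn2 (0.87) and Flt1 (0.80) followed. Flt1 passed at all 4 of its probe sets. At the brightest, Flt1 was lost without any 1 array except wild-type 2 (adjusted p = 0.0736 to 0.145), and Sox17 without transgenic 1, transgenic 3 or wild-type 1 (adjusted p = 0.0546 to 0.0727). The endothelial count was 7 without transgenic 3, without wild-type 1 or with the arrays rescaled to share 1 median. The part of the endothelial difference in the mural result was not tested.

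Fibroblasts share Pdgfrb and, when activated, Acta2, Tagln and Cnn1 with mural cells. Of 14 fibroblast markers tested, 0 rose and Dpt, dermatopontin, fell by 0.48 (SE 0.14), while 13 did not pass. Its call was lost without any 1 array except wild-type 2 (adjusted p = 0.0620 to 0.148). The fibroblast median was -0.18 and the summed signal was 40255 to 43676 on the transgenic and 45750 to 50170 on the wild-type arrays. All 14 fibroblast and all 21 endothelial markers with a probe set were above the filter at their brightest one. The part of fibroblasts in the mural result was not tested.

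Of 14 leukocyte markers tested, 0 rose and Lyz2, lysozyme, fell by 0.55 (SE 0.13), with summed signals of 3297.5 to 4016.2 in transgenic and 4353.2 to 4954.9 in wild-type muscle. That call was lost without transgenic 1, transgenic 3, wild-type 1 or wild-type 2 (adjusted p = 0.0592 to 0.109), and 4 leukocyte markers were called with the arrays rescaled to share 1 median. Of 7 adipocyte markers none passed in limma, and 0 had an unadjusted p under 0.05, Cidec and Pparg having the smallest, and the summed signal was 13054 to 18056 in transgenic and 11937 to 28015 in wild-type muscle, highest on wild-type 3. Of 5 Schwann cell markers none passed and 1, Mag, had an unadjusted p under 0.05 in limma, with Mag and Sox10 at 0.57 and 0.39 and summed signals of 1619.6 to 2045.3 in transgenic and 1530.4 to 1723.6 in wild-type muscle. Of 9 genes of satellite cells and regenerating fibres, which can also carry Notch3 and Acta2, Myh8, the perinatal myosin, fell by 1.76 (SE 0.26, limma adjusted p = 0.00160), 0 rose and 8 did not pass. Myh8 was above the filter through its wild-type signals, as its transgenic mean was 37.3. The summed signal of that list was 815.1 to 884.2 in transgenic and 992.5 to 1284.7 in wild-type muscle. The leukocyte markers Cd3e and Cd79a were below the filter, at 8.9 to 49.1 and 10.4 to 47.7. Whether such dim markers were above the background of the array was not tested. The part of adipocytes, Schwann cells, leukocytes and satellite cells in the mural result was not tested.

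**Figure D5:**
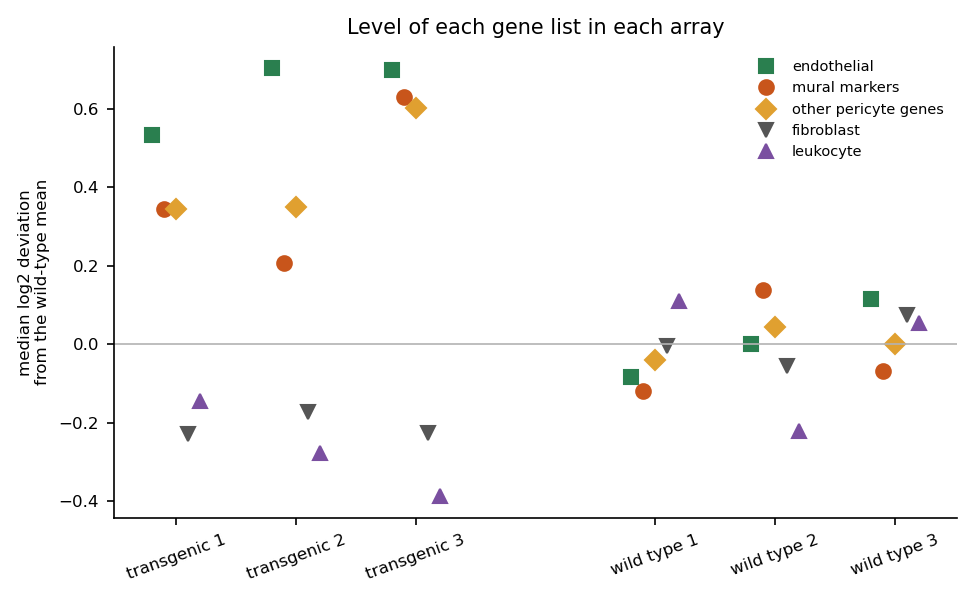
Median over the tested genes of each list of the log2(signal + 16) deviation from the wild-type mean, for each array. Mural markers lie at 0.21 to 0.63 on the transgenic arrays and -0.12 to 0.14 on the wild-type arrays, and endothelial markers at 0.53 to 0.70 and -0.09 to 0.12, while fibroblast markers lie at -0.23 to -0.17 and -0.06 to 0.07.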

How the data were processed

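Biotin-labelled cRNA from quadriceps was hybridised to Affymetrix arrays, 1 array per animal, per the labels' protocols. The authors deposited MAS5 intensity values, linear and not logged, and MAS5 is named in the submitters' processing notes without its settings. The trimmed mean signal was 200.0 on every array. Detection calls were not used here.

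Signals were transformed as log2(signal + 16), which understates changes of dim probe sets. The 64 control probe sets were left out, and 27018 with a mean signal above the 40th percentile, 37.7, were tested. The genotype difference was fitted by limma 3.58.1 (R 4.3.3, lmFit and trended eBayes, two-sided) and p-values were adjusted by Benjamini-Hochberg across the tested probe sets, with a threshold of 0.05. The brightest probe set represented a gene. Gene names came from the platform annotation, and 34741 of 34945 single-gene probe sets matched the NCBI table of GRCm38.p6 by Entrez identifier. Of the genes in the 14 other lists, 16 list entries had no such probe set and were not analysed here. The members and lists were chosen with earlier results of these data known. Up to 5 called genes per list are named by size of difference, or the 2 with the smallest p. With 3 arrays per genotype, their number limits the precision. Replicate numbers were not treated as pairs in the main fit. Deviations of same-numbered arrays from their group means correlated at 0.070, -0.077 and -0.022. Such deviations balance around 0 within 3 arrays, so these values cannot settle whether the animals were paired. The closing section gives the effect of another offset, filter, normalization, variance prior, weighting of arrays, replicate block or probe set rule, and of leaving out each array. Figures used Python 3.11.15 and matplotlib 3.10.9.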

Additional observations from a re-analysis of the deposited data

How the results depend on the processing

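The median of all genes was 0.03 as deposited and -0.11 after scaling arrays to share 1 median signal, and the share of probe set calls that were higher was 55.2% and 28.9%, so directions near 0 depend on the scaling. The rises of Rgs5, Kcnj8 and the dimmer Pdgfrb probe set passed under that scaling. With a replicate block the counts were 2741 probe sets over the table and 6 of the members, against 3115 and 6 without it, and no member call changed. Leaving out 1 array gave 1706 to 3302 changed probe sets, 6 to 7 member probe sets, 2 to 3 member genes, a member median of 0.26 to 0.49 (0.21 after median scaling) and 16 to 44 changed genes over all other lists, against 42 with all arrays. Without the intensity trend the counts were 1580 probe sets and 18 list genes, and without the filter 25 list genes. Median scaling moved list counts to 2 for the Notch and TGF-β pathways, 3 for vascular tone, 2 for fibroblast and for satellite cell genes and 0 for the RGS family. The third member gene was Myh11 without wild-type 1, Cnn1 without the filter, Abcc9 as lower after median scaling and Pdgfrb with all probe sets of a gene averaged. Differences close to 0 changed sign. Abcc9 at its probe set of -0.0002 turned to 0.0486 after quantile normalization and 0.0038 with array weights, and ran from -0.0944 to 0.0491 with 1 array left out. Cspg4 at its brighter probe set was -0.0266 after median scaling. With 1 array left out Pdgfb ran from -0.2139 to 0.0447 and Jag1 from -0.206 to 0.1132, and Jag1 was 0.035 with array weights. The 17 member probe sets were each fitted under 16 alternatives. Of these values 261 kept direction and side of the threshold, 6 changed direction, 4 gained a call and 1 lost it. The cause of these changes was not tested. The number of arrays and dim signals limit what Cnn1, Cspg4 and Myh11 can show.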
